A study of Sus scrofa with 12 samples.

Results

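The genes of fatty acid uptake and mitochondrial beta-oxidation were followed across 2 regions of the infarcted pig heart. The 41 genes were listed by name for their role, with earlier results of these data known. Of these, 38 were matched to an identifier among the 35682 genes of the count tables, and all 38 passed the filter on low counts that left 13844 genes for testing. CD36, ACOT1 and ACOT2 had no identifier by the symbol table and were not analysed here.

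The hearts came from female Yorkshire pigs with ischemia-reperfusion injury. It was made at an age of 10 to 12 weeks by balloon occlusion of the left anterior descending coronary artery (LAD) for 60 min. Every animal was given tacrolimus, mycophenolate mofetil and prednisolone from day 9. On day 14, through a left thoracotomy, the animals received either scaffold-free vascular organoids of human endothelial progenitor cells (EPCs) and smooth muscle cells (SMCs), held in place with fibrin glue, or fibrin glue alone, and the hearts were harvested 4 weeks later. Bulk mRNA was sequenced from mid-level tissue of the border zone, which adjoins the infarct, and of the remote zone in the posterior wall. There were 12 libraries, 1 of each region from animals 1022, 1322, 1323, 1623, 1922 and 3622. The labels do not say which animals carried organoids, so each region holds animals of both treatments and only the regions were compared. No uninjured heart was analysed here.

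Fatty acids are the main fuel of the adult heart. They enter the cardiomyocyte through carriers, are bound in the cytosol, are activated to acyl-CoA and cross the inner mitochondrial membrane as carnitine esters. Inside, a repeating cycle of dehydrogenation, hydration, a further dehydrogenation and thiolytic cleavage shortens the chain, and the electrons pass through flavoproteins and NADH to the respiratory chain.

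Total counts were between 15130210 and 31618680 per library. The share of transcripts of the 13 mitochondrially encoded proteins was 5.69% to 17.3% in border zone libraries and 13.6% to 33.5% in remote zone libraries. The border zone library of animal 3622 was the shallowest and listed 28024 genes with a count, against at most 20148 in any other library. Levels are given as CPM, counts scaled to the library total after TMM normalization. The mean log2 CPM of 12 cardiomyocyte markers was 9.80 to 12.2 in the border zone, lowest in animal 1022, and 12.0 to 12.2 in the remote zone. Over 15 fibroblast and matrix markers the same mean was 6.82 to 10.3 in the border zone, highest in animal 1022, and 5.68 to 6.5 in the remote zone. In bulk tissue, fewer cardiomyocytes and less RNA per cardiomyocyte cannot be told apart.

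No gene of the 38 passed the test between the regions, although most were lower in the border zone. With edgeR's quasi-likelihood test and Benjamini-Hochberg adjustment over all 13844 genes, 0 of the 38 reached an adjusted p under 0.05, where 2.07% of all genes did, and the smallest adjusted p was 0.0915, for CPT1A. Of all genes, 285 (2.06%) were called higher in the border zone and 2 (0.0144%) lower. With the animal as a block, 0 of the 38 and 0.296% of all genes were called. DESeq2 called 1 of the 38, CPT1A at an adjusted p of 0.0475, and 10.2% of all genes, 8.42% in the higher direction. At an unadjusted p under 0.05 stood 9 of the 38 (23.7%) against 24.7% of all genes, 2 of them higher (ACSL5 and CPT1A) and 7 lower (ACADS, ACADVL, ECHS1, HADH, ECI1, ACOT13 and DGAT2). In the lower direction 7.78% of all genes met that mark. With the animal as a block 14 of the 38 met it by edgeR, where 4069 of the 13844 genes did. By DESeq2 16 of the 38 met it, where 4676 of 28693 genes did.

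The direction was shared by most of the genes. The log2 fold change, border zone over remote zone, was below 0 for 33 of the 38 (86.8%; 29 when scaled by library totals alone) and for 46.7% of all genes tested. Its median was −0.46 over the 38 and 0.04 over all genes. Without animal 1022 the median of the 38 was −0.24, with 30 genes below 0, and 22 of the 38 had a fold change nearer 0 by over 1.5 times or of the other sign. Among these and not given further on were SLC27A1 (−0.14 without animal 1022), SLC25A20 (−0.24), CRAT (−0.28), ACADL (−0.20), ACAD9 (−0.17), ECI2 (−0.37), DECR1 (−0.24), ACACB (−0.32), MLYCD (−0.43) and UCP3 (−0.01). The 38 genes are parts of the same pathway in the same libraries and are not independent of each other.

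**Figure D1:**
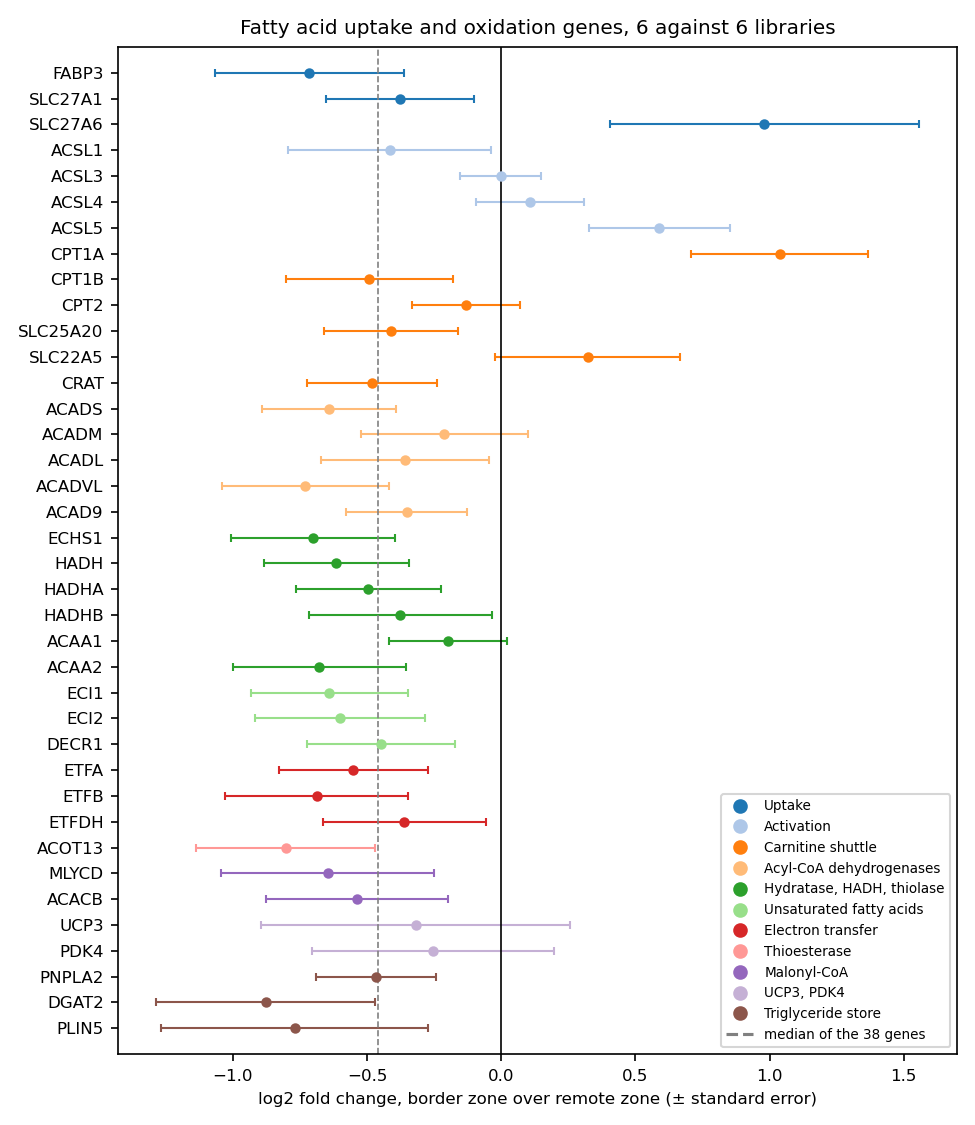
Log2 fold change with its standard error for each of the 38 genes, border zone over remote zone, 6 against 6 libraries, coloured by role; the dashed line is the median of −0.46. CPT1A (1.04), SLC27A6 (0.98), ACSL5 (0.59), SLC22A5 (0.32) and ACSL4 (0.11) lie above 0 and all other genes lie at or below it with TMM scaling.

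Uptake was represented by FABP3, SLC27A1 and SLC27A6. FABP3 (ENSSSCG00000036883), the fatty acid binding protein of heart muscle, lies on chr6:87943003-87950708. It was measured at 103 CPM at the lowest (animal 1022), 519 at the median and 746 at the highest (animal 1322) in the border zone, and at 598, 774 and 1073 CPM in the remote zone. In 4 of 6 border zone libraries it was below every remote zone library, and it was lower in the border zone in 6 of 6 animals. Its log2 fold change was −0.71 ± 0.35 (SE), with an edgeR adjusted p of 0.225.

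SLC27A6, a fatty acid transport protein, had the lowest level per kilobase of the 38, with counts of 4 to 110 per library. Border zone levels ran from 0.367 to 3.63 CPM with a median of 1.28, and remote zone levels from 0.158 to 1.5 with a median of 0.848. The highest border zone value and the lowest remote zone value were both from animal 1022, and the log2 fold change of 0.98 ± 0.58 had an edgeR adjusted p of 0.305. Without animal 1022 it was 0.30. SLC27A1, the other transport protein, gave −0.38 ± 0.28.

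Of the 4 long-chain acyl-CoA synthetases, which activate fatty acids to acyl-CoA, 2 had a log2 fold change below 0 and 2 above. ACSL1, the main synthetase of heart muscle, was at 88.2, 272 and 495 CPM (lowest, median and highest) in the border zone and at 253, 379 and 627 CPM in the remote zone. The ranges overlapped, with 3 border zone libraries below all remote zone libraries, and the log2 fold change was −0.42 ± 0.38 with an edgeR adjusted p of 0.519 (−0.16 without animal 1022). ACSL5, a synthetase better known from gut and liver, had a fold change of the opposite sign, with 8.86, 11.3 and 26.5 CPM in the border zone and 7.09, 8.53 and 11.0 CPM in the remote zone. Its highest value was again in the border zone of animal 1022, and 3 border zone libraries were above all remote zone libraries. The log2 fold change of ACSL5 was 0.59 ± 0.26 with an edgeR adjusted p of 0.186, and it was 0.20 without animal 1022. ACSL4, a synthetase that prefers arachidonate, was at 31.5, 45.5 and 53.6 CPM in the border zone and at 25.2, 43.8 and 51.4 CPM in the remote zone, and the ranges nearly coincided (log2 fold change 0.11 ± 0.20, edgeR adjusted p 0.781). ACSL3 had a log2 fold change of −0.0021 ± 0.15, and 0.29 when scaled by library totals alone.

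Among the 4 synthetases, read per kilobase of exon, ACSL1 made up 81.3% to 89.6% in the remote zone and 47.1% to 89.6% in the border zone. ACSL5 made up 1.75% to 6.04% and 2.71% to 23.9%, with the highest share in the border zone of animal 1022. Its share was higher in the border zone in 5 of 6 animals. These shares describe the mixture of transcripts in the tissue and carry no test.

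The carnitine shuttle had a median log2 fold change of −0.27 over 6 genes, 4 below 0 and 2 above. The mean border-minus-remote difference of these genes within an animal was below 0 in 1 of 6 animals. It ran from −0.84 to 0.24, with a median of 0.03. CPT1A (ENSSSCG00000012880, chr2:4250642-4293914) encodes the liver form of carnitine palmitoyltransferase 1, the malonyl-CoA-sensitive entry step. CPT1B (ENSSSCG00000022364, chr5:155552-163536) encodes the muscle form of the same enzyme. The 250 bases before the annotated start of each gene are shown because the fold changes of the 2 genes had opposite signs. They were taken from Sscrofa11.1 with the RefSeq annotation and read on the plus strand, chr2:4250392-4250641 for CPT1A and chr5:155302-155551 for CPT1B. Capitals mark ATTGG, the reverse complement of the CCAAT box, in CPT1A, and TATTTTTA, the core of the element bound by the muscle factor MEF2, in CPT1B.
CPT1A: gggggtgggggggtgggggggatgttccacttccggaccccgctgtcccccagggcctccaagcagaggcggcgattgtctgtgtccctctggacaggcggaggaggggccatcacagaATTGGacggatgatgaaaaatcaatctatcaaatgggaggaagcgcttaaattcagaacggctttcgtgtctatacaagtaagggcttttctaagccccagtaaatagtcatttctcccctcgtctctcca
CPT1B: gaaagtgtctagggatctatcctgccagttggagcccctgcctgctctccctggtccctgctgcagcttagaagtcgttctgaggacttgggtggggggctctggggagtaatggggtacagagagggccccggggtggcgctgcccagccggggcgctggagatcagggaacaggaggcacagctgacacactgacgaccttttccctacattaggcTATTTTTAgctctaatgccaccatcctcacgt

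The MEF2 core stood 32 to 25 bases before the start of CPT1B, and the CCAAT box 131 to 127 bases before the start of CPT1A. TATTTTTA was in 2.27% of the same windows of 19556 protein-coding genes and in 2 of the 38, the other being DECR1, and CCAAT was in 31.9%, each on either strand. The MEF2 core was added to the search after the sequence was seen. A match of letters is a description of the window only.

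CPT1A was at 9.99, 15.6 and 41.5 CPM in the border zone and at 7.08, 8.13 and 14.0 CPM in the remote zone. In 4 of 6 border zone libraries it was above every remote zone library, and it was higher in the border zone in every animal but 1322. The log2 fold change was 1.04 ± 0.33, with an edgeR adjusted p of 0.0915, and over the other settings, DESeq2 included, the adjusted p ran from 0.0320 to 0.272. Without animal 1022 the log2 fold change was 0.58.

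CPT1B was at 94.9, 322 and 508 CPM in the border zone and at 320, 451 and 571 CPM in the remote zone. The lowest border zone value was from animal 1022, and 3 border zone libraries were below all remote zone libraries. Its log2 fold change was −0.49 ± 0.31 with an edgeR adjusted p of 0.341, and it was −0.24 without animal 1022.

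Per kilobase of exon, CPT1A made up 0.863% to 2.0% of the CPT1A and CPT1B transcripts in the remote zone, with a median of 1.35%. In the border zone the share was 22.5% in animal 1022, 1.4% in animal 1322 and between 2.09% and 3.32% in the other 4 animals. It was higher than in the remote zone of the same animal in 5 of 6 animals, animal 1322 being the exception. The log2 ratio of CPT1A to CPT1B differed between the regions by 1.53 ± 1.90 (mean ± SD, n = 6) within animals, and by 0.82 without animal 1022. An exact two-sided sign-flip permutation test over the 6 animals gave p = 0.0938, where the smallest p this design allows is 0.0313. The ratio was chosen after the values were seen. CPT1B remained the more abundant form in every library.

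**Figure D2:**
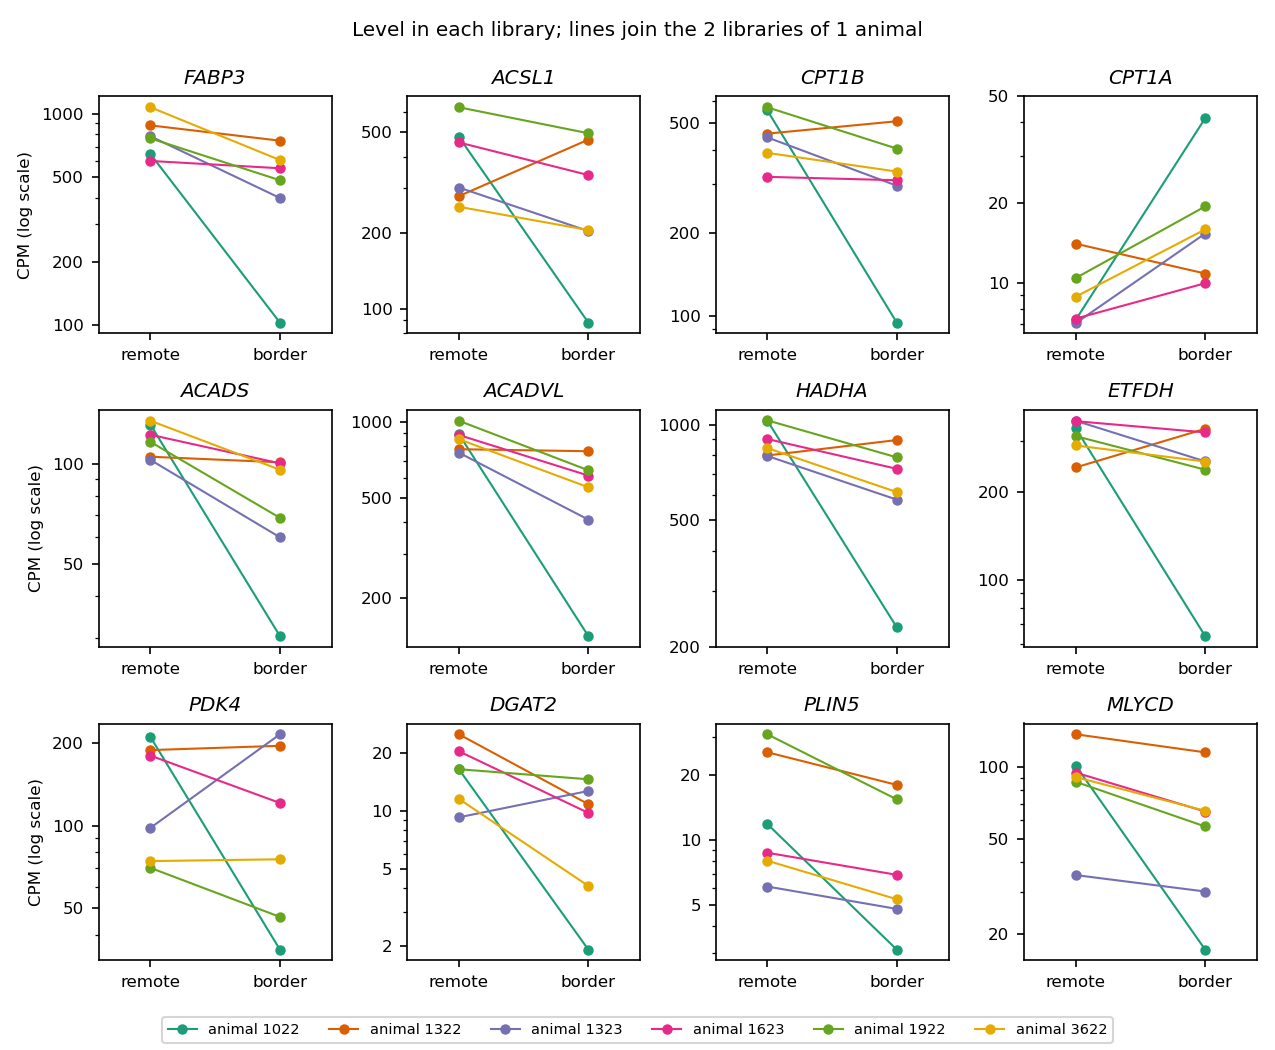
CPM (log scale) of 12 of the genes in each library, remote zone at left and border zone at right, with a line for each of the 6 animals. The lines of animal 1022 fall steeply in every panel except CPT1A, where the line rises from 7.29 to 41.5 CPM, and the ACADS panel has all border zone values (30.3 to 101.0 CPM) below all remote zone values (102.7 to 134.7 CPM).

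SLC22A5, the carnitine transporter of the plasma membrane, was at 1.10, 1.64 and 2.15 CPM in the border zone and at 0.401, 1.32 and 2.10 CPM in the remote zone. With counts of 6 to 73 per library the ranges overlapped over most of their length (log2 fold change 0.32 ± 0.35, edgeR adjusted p 0.593; 0.49 without animal 1022). The remaining shuttle genes were CPT2, which re-forms acyl-CoA in the matrix (−0.13 ± 0.20 on the log2 scale, 0.12 with library totals alone and 0.04 without animal 1022), the carnitine-acylcarnitine carrier SLC25A20 (−0.41 ± 0.25) and the acetyltransferase CRAT (−0.48 ± 0.24). SLC25A20 and CRAT were lower in the border zone in 6 of 6 animals and CPT2 in 3 of 6.

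The 5 acyl-CoA dehydrogenases, which carry out the first oxidation of the cycle, all had a log2 fold change below 0, except ACADM at 0.014 when scaled by library totals alone, with a median of −0.36 and adjusted p-values of 0.144 to 0.710. ACADS (ENSSSCG00000009916, chr14:40642810-40656922), the short-chain enzyme, was the only member whose regions did not overlap, where 2.69% of all genes tested had no overlap, 0.701% with the border zone below. It was singled out after its values were seen. ACADS was at 30.3, 82.3 and 101.0 CPM in the border zone and at 102.7, 119 and 134.7 CPM in the remote zone. The gap between the regions was narrow, from animal 1322 in the border zone to animal 1323 in the remote zone. Its log2 fold change was −0.64 ± 0.25 with an edgeR adjusted p of 0.144, and within animal 1322 the difference was −0.06.

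ACADVL, the very-long-chain enzyme of the inner membrane, was at 141, 581 and 765 CPM in the border zone and at 755, 870 and 1010.2 CPM in the remote zone. Only the border zone library of animal 1322 reached into the remote zone range. Its log2 fold change was −0.73 ± 0.31 with an edgeR adjusted p of 0.171. ACADM, the medium-chain enzyme, was at 81.1, 328 and 430.2 CPM in the border zone and at 272, 334 and 456 CPM in the remote zone. The medians of ACADM almost met, and apart from animal 1022 the regions lay over each other (log2 fold change −0.21 ± 0.31, edgeR adjusted p 0.710; −0.02 without animal 1022). ACADL (−0.36 ± 0.31) and ACAD9 (−0.35 ± 0.22) lay between these on the log2 scale.

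All 6 genes of the hydratase, hydroxyacyl-CoA dehydrogenase and thiolase steps had a log2 fold change below 0, except ACAA1 at 0.13 when scaled by library totals alone, with a median of −0.55. HADHA (ENSSSCG00000008571) and HADHB (ENSSSCG00000008569) encode the alpha and beta subunits of the mitochondrial trifunctional protein, which handles long chains. The 2 genes point away from each other on chromosome 3, with 221 bases between their annotated starts. That stretch, chr3:112753122-112753342 of Sscrofa11.1, is shown on the plus strand because both genes start from it, and none of the motifs searched was found in it, so it holds no capitals.
HADHA-HADHB: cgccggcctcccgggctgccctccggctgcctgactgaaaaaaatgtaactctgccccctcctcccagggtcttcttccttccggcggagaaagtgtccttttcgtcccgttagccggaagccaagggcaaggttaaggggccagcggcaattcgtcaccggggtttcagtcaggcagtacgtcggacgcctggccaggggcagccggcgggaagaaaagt

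HADHA was at 230.5, 670 and 894 CPM in the border zone and at 797, 872 and 1031 CPM in the remote zone. It was below every remote zone library in 5 of 6 border zone libraries, the exception being animal 1322 (log2 fold change −0.49 ± 0.27, edgeR adjusted p 0.267). HADHB gave −0.38 ± 0.34 on the log2 scale. Without animal 1022 the values were −0.28 for HADHA and −0.13 for HADHB. The 2 subunits were set side by side within each animal. The border-minus-remote difference in log2 CPM was −2.16 for HADHA and −2.48 for HADHB in animal 1022, 0.16 and 0.59 in animal 1322, −0.46 and −0.61 in animal 1323, −0.31 and −0.11 in animal 1623, −0.39 and −0.84 in animal 1922, and −0.46 and 0.07 in animal 3622. The sign differed in animal 3622 only, and no test was made of the difference.

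Of the other 4 genes, ECHS1, the short-chain enoyl-CoA hydratase, and ACAA2, the mitochondrial thiolase, had the lowest values at −0.70 ± 0.30 and −0.68 ± 0.32. HADH, the medium and short-chain hydroxyacyl-CoA dehydrogenase, followed at −0.61 ± 0.27. ACAA1, a peroxisomal thiolase, was at −0.20 ± 0.22. Its exons share 335 bases with MYD88 and 128 with DLEC1 on the opposite strand. The libraries were nondirectional, so its counts may hold reads of both. HADH was the steadiest of the 38 in the remote zone, where its highest CPM was 1.11 times its lowest.

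Unsaturated fatty acids need the isomerases ECI1 and ECI2 and the dienoyl-CoA reductase DECR1 to enter the cycle. All 3 had a log2 fold change below 0. DECR1 was at 41.5, 128 and 183 CPM in the border zone and at 131, 163 and 226 CPM in the remote zone. The regions overlapped, with 3 border zone libraries below the remote zone range and a log2 fold change of −0.45 ± 0.28 (edgeR adjusted p 0.328). ECI1 gave −0.64 ± 0.29 and ECI2 −0.60 ± 0.32. In ECI1, 617 bases of exon are shared with genes on the opposite strand, and the libraries were nondirectional, so these counts may hold reads of DNASE1L2 and E4F1.

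ECI2 was the only gene of the 38 with the element of the estrogen-related receptors (ERRs), which are known regulators of fatty acid oxidation genes, in the 250 bases before its start. The window is shown for that reason, chr7:2446173-2446422 of Sscrofa11.1 on the minus strand. Capitals mark TGACCTTGA, the reverse complement of the ERR element, the GC boxes as CCGCCC and the CCAAT box as ATTGG.
ECI2: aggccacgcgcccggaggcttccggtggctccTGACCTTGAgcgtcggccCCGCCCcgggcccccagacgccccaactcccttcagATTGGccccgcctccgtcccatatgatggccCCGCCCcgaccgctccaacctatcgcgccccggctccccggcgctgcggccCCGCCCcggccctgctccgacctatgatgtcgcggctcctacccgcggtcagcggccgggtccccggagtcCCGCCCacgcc

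TCAAGGTCA, the ERR element, was in 0.332% of all 19556 windows. The direct repeat bound by PPAR and RXR, read as AGGTCA, any 1 base and AGGTCA again, was in 0 of the 38 windows and in 0.0256% of all. The core AGGTCA, which also lies inside the ERR element, was in 7 of 38 (18.4%) and in 12.2% of all, GGGCGG in 22 of 38 (57.9%) and in 45.9%, and CCAAT in 16 of 38 (42.1%) and in 31.9%. All were searched on both strands.

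Electrons from the dehydrogenases pass through the electron transfer flavoprotein, made of ETFA and ETFB, to its ubiquinone oxidoreductase ETFDH. The 3 genes had log2 fold changes of −0.55 ± 0.28, −0.69 ± 0.34 and −0.36 ± 0.30. ETFDH was at 63.8, 256 and 331 CPM in the border zone and at 244, 323 and 353 CPM in the remote zone. Outside animal 1022 its border zone values lay largely inside the remote zone range (edgeR adjusted p 0.481), and without that animal its log2 fold change was −0.15.

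ACOT13, a thioesterase that releases fatty acid from acyl-CoA, was at 18.4, 85.6 and 103 CPM in the border zone and at 94.0, 118 and 199.98 CPM in the remote zone. It was lower in the border zone in 6 of 6 animals and below the remote zone range in 4 of 6 libraries. The log2 fold change was −0.80 ± 0.33 with an edgeR adjusted p of 0.162. Of its exon sequence, 1164 bases overlap C7H6orf62 on the opposite strand, so its counts are uncertain.

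Malonyl-CoA, the inhibitor of CPT1, is made at the mitochondrial surface by ACACB and removed by MLYCD. MLYCD was at 17.1, 60.8 and 116 CPM in the border zone and at 35.3, 93.0 and 138 CPM in the remote zone. The lowest remote zone value was from animal 1323 and the highest border zone value from animal 1322. The ranges overlapped, although within each of the 6 animals the gene was lower in the border zone (log2 fold change −0.65 ± 0.40, edgeR adjusted p 0.326). ACACB gave −0.54 ± 0.34 on the same scale. The enzymes that make and remove malonyl-CoA had fold changes of the same sign.

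PDK4, the kinase that turns down pyruvate oxidation when fatty acids are burned, had a wide spread between animals. It was at 35.3, 98.3 and 216 CPM in the border zone and at 70.2, 139 and 211 CPM in the remote zone. The border zone held both the lowest and the highest library, animals 1022 and 1323, and the log2 fold change was −0.25 ± 0.45 (edgeR adjusted p 0.765). Without animal 1022 it turned to 0.09. UCP3, the mitochondrial carrier of muscle that rises with fatty acid supply, had 5 to 49 counts per library and gave −0.32 ± 0.57.

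The triglyceride store was represented by the lipase PNPLA2, the acyltransferase DGAT2, which makes triglyceride, and the droplet protein PLIN5, which ties the store to mitochondria. PNPLA2 was at 110.3, 176 and 273 CPM in the border zone and at 191, 248 and 316 CPM in the remote zone. It was lower in the border zone in 6 of 6 animals, with a log2 fold change of −0.47 ± 0.22 (edgeR adjusted p 0.211). DGAT2 was at 1.92, 10.3 and 14.6 CPM in the border zone and at 9.29, 16.5 and 25.0 CPM in the remote zone. Its log2 fold change of −0.88 ± 0.41 was the lowest of the 38, with an edgeR adjusted p of 0.202, and animal 1323 went against it.

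PLIN5 was at 3.11, 6.11 and 18 CPM in the border zone and at 6.09, 10.3 and 30.9 CPM in the remote zone. The ranges overlapped widely, and the gene was lower in the border zone in 6 of 6 animals. The log2 fold change was −0.77 ± 0.50 with an edgeR adjusted p of 0.353. With the animal as a block the value was −0.78 and the adjusted p 0.0879, the smallest of the 38 in that fit. With the animal as a block and animal 1022 left out, PLIN5 was the only gene of the 38 called, at −0.56 and an edgeR adjusted p of 0.0446, where 6.19% of all genes were called, 2.08% in the lower direction.

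Read per kilobase of exon, the levels of the 38 genes in the remote zone spanned from FABP3 to SLC27A6. FABP3 stood first with a median of 1731 CPM per kilobase (1339 to 2400), and its range lay above that of every other gene. ECHS1 (median 365), HADHB (350.4), HADHA (322), ACAA2 (296) and HADH (290.3) came next, with ranges that overlapped their neighbours. ETFB, ACADVL, CRAT, ACADM and ETFA followed between 180.1 and 188, again within each other's spread. CPT1B was at 158, ACSL1 at 76.7, ACADS at 58.0 and PDK4 at 39.3 CPM per kilobase. At the lower end were CPT1A (1.90), UCP3 (0.484), SLC22A5 (0.245) and SLC27A6 (0.0541). Exon lengths were those of RefSeq, whereas the counts rest on Ensembl gene models, and the order carries that limit.

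**Figure D3:**
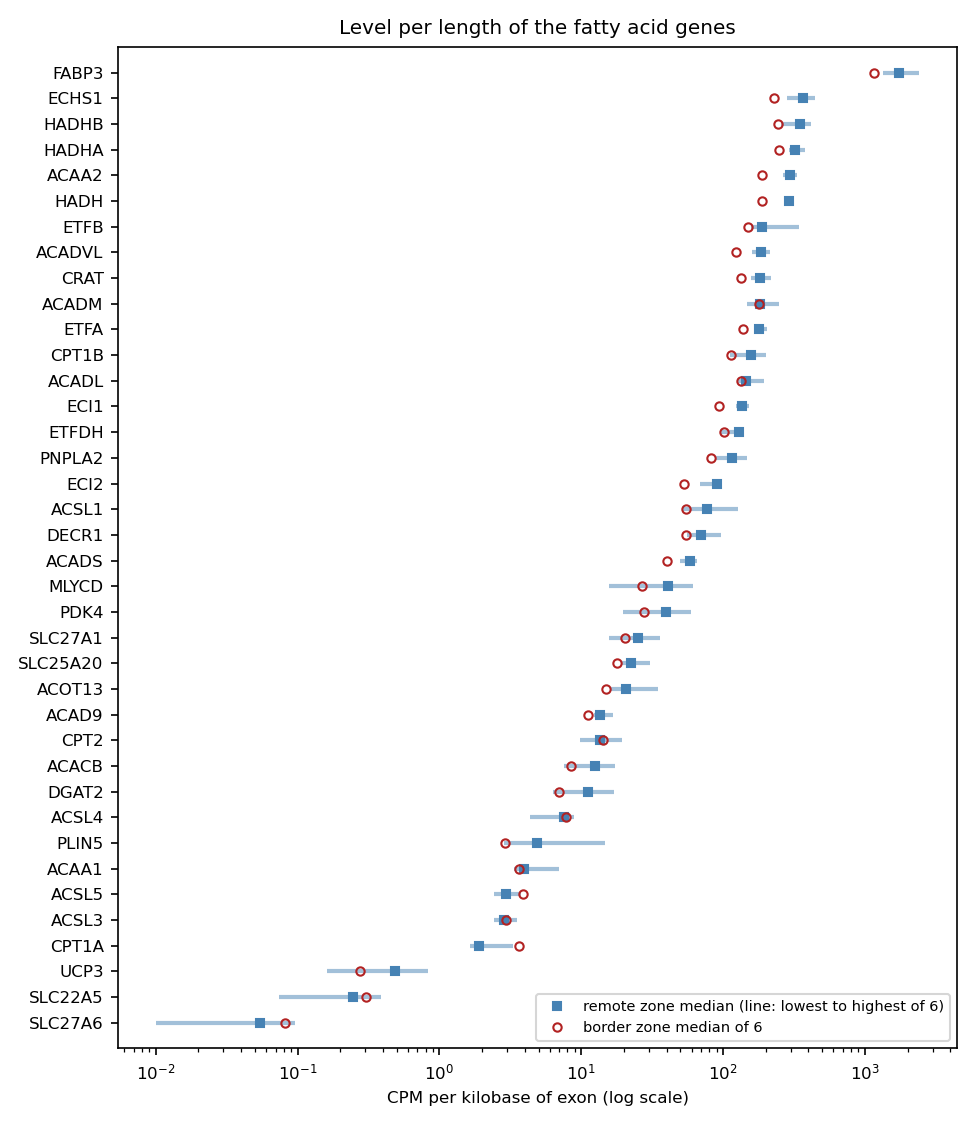
CPM per kilobase of exon (log scale) of each gene: square and line, median and range of the 6 remote zone libraries; open circle, median of the 6 border zone libraries. Genes are ordered by the remote zone median, from SLC27A6 (0.0541) to FABP3 (1731), and the border zone median is to the right of it for CPT1A, ACSL5, ACSL4, ACSL3, CPT2, SLC22A5 and SLC27A6.

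The regions were also compared within each animal. The median border-minus-remote difference in log2 CPM over the 38 genes was −2.16 in animal 1022, −0.38 in animal 1323, −0.37 in animal 3622, −0.35 in animal 1922, −0.27 in animal 1623 and 0.03 in animal 1322. Animal 1022 stood apart, with 34 genes lower and 31 of them by over 1 on the log2 scale, and in animal 1322 17 genes were lower and 21 higher. In the other 4 animals 28 to 32 of the 38 were lower. The summed CPM of the 38 genes was 2158 in the border zone and 9749 in the remote zone of animal 1022. In animal 1322 it was 9690 in the border zone and 9057 in the remote zone, and in the other 4 animals 6055 to 7314 in the border zone, against 8909 to 10037 in the remote zone.

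Counted by gene, 11 of the 38 were lower in the border zone in 6 of 6 animals, where 11.1% of all genes tested were. These were FABP3, SLC25A20, CRAT, ACADS, ACADVL, ECHS1, ETFB, ACOT13, MLYCD, PNPLA2 and PLIN5. A further 15 were lower in 5 of 6, and for 13 of these the exception was animal 1322. Lower in at least 5 of 6 animals were thus 26 of the 38, against 25% of all genes. No gene of the 38 was higher in 6 of 6 animals, where 11.7% of all genes were, and 3 (ACSL5, CPT1A and SLC22A5) were higher in 5 of 6, where 28.8% of all genes were higher in at least 5. The border zone library of animal 1022 was the lowest of all 12 libraries for 32 of the 38 genes and the highest of the border zone for 3. Across genes, the median ratio of the highest to the lowest CPM was 1.70 in the remote zone and 5.24 in the border zone, and 1.79 in the border zone without animal 1022.

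**Figure D4:**
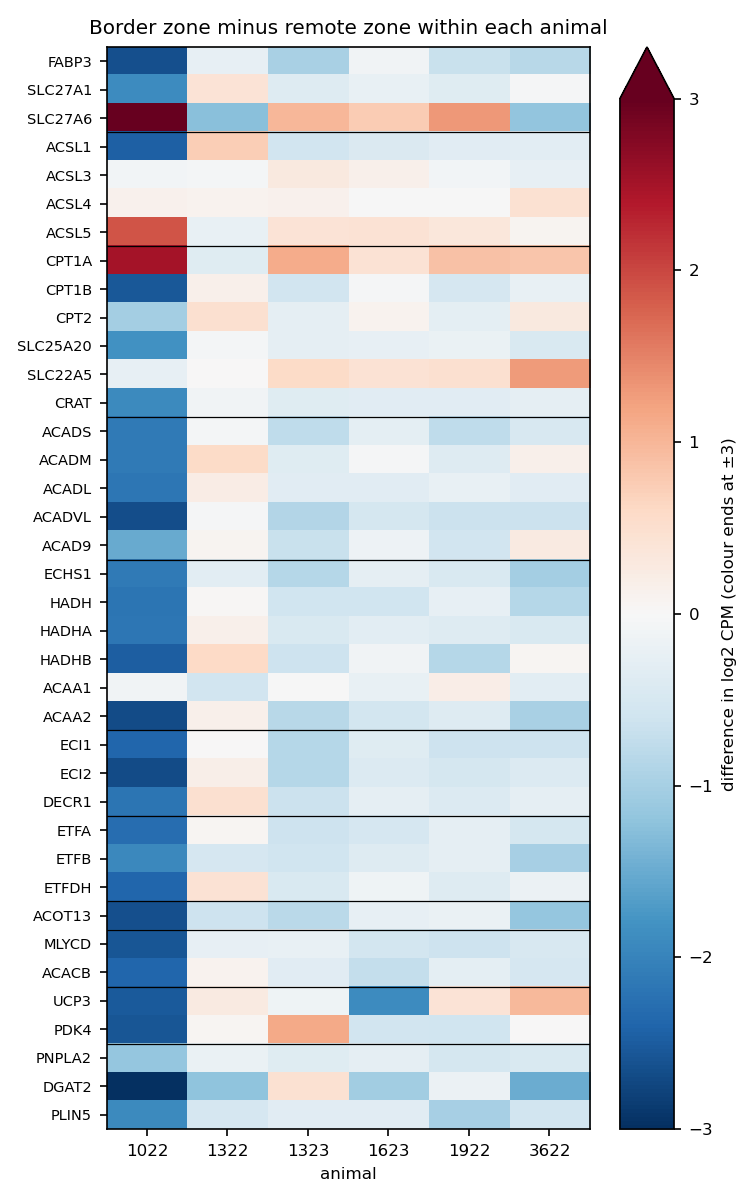
Border-minus-remote difference in log2 CPM of each of the 38 genes (rows, grouped by role) in each of the 6 animals (columns); blue is lower and red is higher in the border zone. The column of animal 1022 is the darkest blue (median −2.16), with SLC27A6, CPT1A and ACSL5 in clear red, and the column of animal 1322 has its median nearest 0 (0.03).

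Cardiomyocyte markers had fold changes of the same sign as most fatty acid genes. Of 14 cardiomyocyte markers listed, MYH7 and TTN had no identifier and were not analysed here. All 12 tested markers of cardiomyocytes had a log2 fold change below 0. Their median was −0.51 (−0.28 without animal 1022 and −0.29 with library totals alone), with a range from −1.10 (TNNI3) to −0.05 (ACTC1). By edgeR 0 of the 12 were called, and TNNI3 was called lower by DESeq2 and by edgeR with the animal as a block and animal 1022 left out. Of 15 fibroblast and matrix markers 13 were called higher by edgeR, with a median of 2.62 (1.70 without animal 1022). With the animal as a block 1 of the 15 was called (POSTN), and without a block 12 were called when animal 1022 was left out, 13 without animal 1322 and 0 without 1323, 1623, 1922 or 3622. With the block the count was 13 when animal 1022 was left out and 0 when any other animal was. Without it the count was 15 with library totals alone, 7 with no filter on low counts and 10 without the border zone library of animal 3622. Macrophage markers had a median of 1.52 over 11 genes (0.60 without animal 1022), smooth muscle and pericyte markers 1.33 over 10 (0.70) and endothelial markers 0.12 over 12 (−0.05). Above 0 were 11 macrophage, 8 smooth muscle and pericyte and 8 endothelial markers, and below 0 were 0, 2 and 4. The 2 were SMTN (−0.57, lower in 6 of 6 animals) and RGS5 (−0.22). By edgeR 0 of each were called, and by DESeq2 5, 5 and 0. With library totals alone edgeR called 8 macrophage and 8 smooth muscle markers higher, where 1551 of the 13844 genes tested were called. The endothelial median was then 0.47. Among the smooth muscle markers CSPG4 was also called when the border zone library of animal 1022, or animal 1322, was left out, and CNN1 and CSPG4 with the block and animal 1022 left out. Adipocyte markers had a median of 0.63 over 7 genes (0.34 without animal 1022), 4 of them above 0 and 3 below (LIPE, FABP4 and CIDEA). The median was 0.0088 without animal 1323, and −0.23 over the 4 markers with at least 10 counts in every library. By edgeR 0 of the 7 were called, with the animal as a block 1 (ADIPOQ) and by DESeq2, with library totals alone or without animal 1322 2 (ADIPOQ and PLIN1). ADIPOQ, which had the highest fold change of the list, was at 0 to 26.8 CPM in the border zone, against 0 to 0.955 in the remote zone. The part of these cell types in the values of the fatty acid genes was not tested.

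Set against the mean of the cardiomyocyte markers in the same library, the fatty acid genes differed less between the regions. The mean log2 CPM of the 38 genes minus that of the 12 markers was −5.64 to −4.87 in border zone libraries and −5.81 to −5.50 in remote zone libraries. Within animals the difference between regions had a median of 0.15 and was below 0 in 1 of 6 animals. With the median of each list in place of the mean it was −0.11 and below 0 in 4 of 6, so its sign depended on the summary used. Against the mean of the markers, 22 of the 38 genes had a median within-animal difference above 0 and 16 below. ACADVL was lower in 6 of 6 animals (median −0.26), and ACADL (0.11) and ACSL4 (0.48) were higher in 6 of 6.

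The nuclear genes of oxidative phosphorylation had a lower median fold change than the fatty acid genes. All 18 had a log2 fold change below 0, with a median of −0.70 (−0.44 with library totals alone), and their mean was lower in the border zone in 6 of 6 animals. By edgeR 0 of the 18 were called, by DESeq2 1 (COX4I1), and by edgeR with the animal as a block and animal 1022 left out 2 (NDUFV1 and COX4I1). The border-minus-remote difference of the 38 fatty acid genes relative to these 18 was above 0 within all 6 animals, the median being 0.32, and with medians in place of means the difference was 0.31 and positive in 5 of 6. Glycolysis genes had a median log2 fold change of −0.25 over 19 genes with 0 called by edgeR and 1 by DESeq2 (TPI1), and of 0.01 with library totals alone. Relative to them the fatty acid genes differed by −0.17 with means and by 0.07 with medians.

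**Figure D5:**
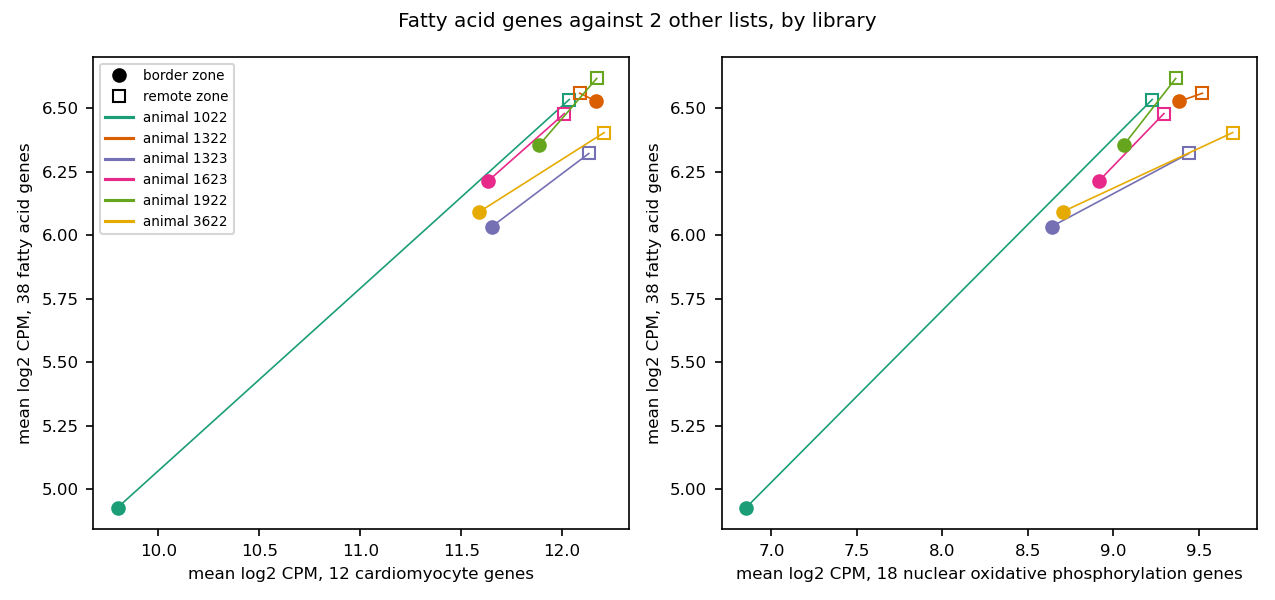
Mean log2 CPM of the 38 fatty acid genes (vertical) against the mean log2 CPM of 12 cardiomyocyte markers (left) and 18 nuclear oxidative phosphorylation genes (right), 1 point per library, filled for border zone and open for remote zone, with a line joining the libraries of an animal. The border zone point of animal 1022 lies far down and to the left (4.93 against 9.80 at left), and the other libraries lie together at 6.04 to 6.62 on the vertical axis.

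The wider pathway was read from 59 further genes, of which 55 were matched and 52 tested. None was called by edgeR at an adjusted p under 0.05, the smallest being 0.143. With library totals alone 1 was called higher, the droplet protein PLIN2, where 1551 of the 13844 genes tested were called. With TMM scaling 9 of the 52 (17.3%) stood at an unadjusted p under 0.05, against 24.7% of all genes. On the same scaling 42 of the 52 had a log2 fold change below 0, with a median of −0.32. The carnitine, ketone and related genes were below 0 for all 13 tested, from ACOT11 (−0.60) to TMLHE (−0.14). Peroxisomal oxidation had a median of −0.13 over 8 genes, the highest being the oxidase ACOX3 (0.01). Lipid droplet and lipoprotein genes had a median of −0.29 over 16, from the hormone-sensitive lipase LIPE (−0.72) to the droplet protein CIDEC (1.08). The regulators had a median of −0.31 over 15, from the transcription factor KLF15 (−0.74) to the cytosolic acetyl-CoA carboxylase ACACA (0.40).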

How the data were processed

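Messenger RNA was selected by poly-A, copied with random primers and sequenced in 12 libraries of pig heart. Per the authors' methods, paired reads of 150 bases were checked with FastQC 0.12.1 and MultiQC 1.17, aligned to Sscrofa11.1 with Ensembl release 113 annotation by STAR 2.7.10a and counted per gene by featureCounts 2.16.1. The deposited values are raw counts per gene, 1 table per library, with no normalization. The libraries were nondirectional, which leaves the strand of a read unknown where exons overlap. Duplicate removal is not given in the sources used here.

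The members and lists were chosen with earlier results of these data known. The genes described in full were those called by edgeR, by edgeR with the animal as block or by DESeq2, the 5 highest and 5 lowest log2 fold changes, and set genes of each role. CD36 was one of these set genes and was not analysed here. Of each further pathway list the lowest and highest fold changes were named, and 1 of these genes is not reported here. Symbols were matched through a table of gene identifiers that named 15623 of the 35682 identifiers. Among the markers it held no MYH7, TTN, THY1, TUSC5 or ATP5F1B. Counts were scaled by TMM, filtered with filterByExpr and tested with edgeR 4.0.16 (glmQLFit, robust, and glmQLFTest) in R 4.3.3, border zone against remote zone, 6 libraries each. Log2 CPM used a prior count of 2. P-values were adjusted over all 13844 genes with a threshold of 0.05. Fitting was tested on simulated data. The simulated counts were drawn independently, with no shared animal effect and no library set apart, so that test does not cover the pairing or animal 1022.

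Libraries with the same animal number come from the same animal, as the titles give it. The correlation of their deviations from the region means averaged 0.345 and ran from −0.03 to 0.57, over 0.1 in 4 of 6 pairs. No library was a copy of another, the lowest chi-square per gene between libraries of a region being 27.3. Both regions of an animal enter the fit without block as if independent, and the values with the block are given beside the counts of calls that it moves.

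Alternatives were the animal as block, DESeq2 1.42.0, its size factors in edgeR, scaling by library totals alone, all genes with a count kept, a minimum of 10 counts in each library, the 13 mitochondrial genes left out, the border zone library of animal 3622 or of animal 1022 left out, and each animal left out. The block with each animal left out was added after seeing the data. Promoter windows were 250 bases before the annotated start of 19556 protein-coding genes in RefSeq's annotation of Sscrofa11.1. Total counts bound the precision of genes with few counts, and 3 of the 38 had under 10 counts in some library.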

Additional observations from a re-analysis of the deposited data

Results flagged for a closer look

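In each region the highest and the lowest of the 6 libraries were compared with the others on the log2 CPM scale for each of the 38 genes, 76 groups in all, by Dixon's gap ratio at its 95% critical value. Chance sets apart about 1 group in 20, and 19 of the 76 were set apart. In 17 of these the border zone library of animal 1022 lay below the other 5, in 1 it lay above them, and in 1 the remote zone library of animal 1323 lay below. The groups share their libraries and are not independent.

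The border zone of animal 1022 was low for FABP3 (103.1 CPM, the next library at 400.0) and for SLC25A20 (11.6, next 29.2), CPT1B (94.9, next 296.9) and CRAT (204.6, next 462.5) of the carnitine shuttle. The dehydrogenases ACADL (49.1, next 172.8), ACADM (81.1, next 244.6) and ACADVL (141.3, next 409.6) were set apart in the same way. So were ECHS1 (68.3, next 207.0), HADH (112.4, next 280.7), HADHA (230.5, next 580.9) and ACAA2 (53.8, next 200.9) of the later steps. The list closed with ECI1 (32.8, next 115.5), ECI2 (28.5, next 95.8), DECR1 (41.5, next 124.2), ETFA (54.4, next 177.8), ETFDH (63.8, next 239.5) and ACOT13 (18.4, next 66.4).

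ACSL5 was high in the border zone of animal 1022, at 26.5 CPM against 12.2 for the next library. MLYCD was low in the remote zone of animal 1323, at 35.3 CPM against 86.9 for the next. In the border zone of animal 1022 the mean log2 CPM of the cardiomyocyte markers was 9.80, the lowest of the 12 libraries, and that of the fibroblast and matrix markers 10.3, the highest. Their part in these values was not tested.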

How the results depend on the processing

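The count of all genes called (287, 2 of them lower) moved to 41 (1 lower) in the fit with a replicate block for the animal, 1719 (307) with DESeq2, 1551 (6) with library totals, 139 (1) with no filter, 149 (0) with at least 10 counts in every library and 156 (0) without the border zone library of animal 3622. It was 307 without the border zone library of animal 1022, with 7 lower. Leaving out 1 animal at a time gave 0 to 519 (0 to 10 lower), with 163 without animal 1022, 519 without 1322, 3 without 1323, 15 without 1922, and 0 in edgeR without 1623 or without 3622, which left 2662 and 2448 genes at an unadjusted p under 0.05. With the block as well, it was 0 to 856 (0 to 287 lower), with 856 without 1022, 51 without 1322 and 10 without 1323. The cause was not tested.

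Of the 38 fatty acid genes 1 was called with DESeq2 (CPT1A), 1 with library totals (CPT1A at 1.4, edgeR adjusted p 0.0320) and 1 with the block without animal 1022 (PLIN5), and 0 in the other settings, where the block changed no call of a member. With 1 animal left out, the median log2 fold change of the 38 ran from −0.65 without 1322 to −0.24 without 1022, and with the block as well from −0.75 without 1322 to −0.25 without 1022. It was −0.22 with library totals, a scaling that moved the median of all genes from 0.04 to 0.32. The sign changed for genes near 0: ACSL3 to 0.29, CPT2 to 0.12, ACADM to 0.014 and ACAA1 to 0.13 with library totals, and ACSL3 to 0.030 with at least 10 counts, 0.0042 without mitochondrial genes and 0.052 without the border zone library of animal 3622. Leaving out 1 animal gave ACSL3 −0.11 to 0.040, CPT2 −0.24 to 0.043, PDK4 −0.66 to 0.088 and UCP3 −0.69 to 0.070, and with the block ACSL3 −0.11 to 0.039 (0.0087 without 1022 and 0.0089 without 1922) and CPT2 −0.25 to 0.058. The adipocyte median was −0.23 with at least 10 counts, 0.00879 without animal 1323 to 0.77 without 1322, and 0.081 to 0.70 with the block. The comparison with cardiomyocyte markers was 0.15 with means and −0.11 with medians. Depth limits SLC27A6, SLC22A5 and UCP3 most.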
